A study of Mus musculus with 4 samples.

Results

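Cells of the early headfold (EHF) mouse embryo that held at least 1 UMI of the WPRE-tdTomato reporter row (labelled cells) were compared with cells of the same library that held none (unlabelled cells). A UMI, or unique molecular identifier, marks 1 captured transcript molecule, and cells under 3500 UMIs in total were left out. Of the 3494 EHF cells, 2739 reached this total, 346 of them labelled and 2393 unlabelled, of 11123 cells in the 3 libraries of the series. The comparison was repeated in a mesoderm gate, which holds the 415 cells with a UMI in at least 2 of the 7 genes *Mesp1*, *Pcdh19*, *Dll1*, *Foxc1*, *Meox1*, *Tcf15* and *Foxf1*. In this gate 167 cells were labelled and 248 were unlabelled. The reporter UMIs chose the groups, so the reporter itself is no result here.

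*T* (Brachyury) is a T-box transcription factor of the primitive streak, the strip of epiblast through which cells leave to form mesoderm and endoderm. It is switched off as the cells move away, and it persists in the caudal progenitors and the notochord. A Cre made from the *T* locus therefore marks cells that expressed *T* while tamoxifen was active, together with their descendants. Anterior to the streak lie the presomitic and the somitic mesoderm. In the presomitic mesoderm Notch, Wnt and FGF signals drive the segmentation clock, and the somitic mesoderm makes retinoic acid.

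All embryos carried TnEGP-CreERT2 on one *T* allele, so that a nuclear EGFP and a tamoxifen-dependent Cre follow the endogenous *T*, and R26Rtdtomato on both alleles, from which Cre removes a stop before tdTomato. The 4 EHF embryos were taken at E7+14h, 7 h after their mothers received tamoxifen by gavage (0.08 mg/bw, E7+7h). They were pooled into 1 library, and every group compared came from it. The earlier libraries were MS-LS (E6+21h, 16 h after tamoxifen) and OB-EB (E7+3h, 6 h after tamoxifen). No untreated library was analysed here.

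With 1 library there was no replicate, so no test was made. Levels are UMIs of a gene summed over a group and scaled to 1000000 (CPM), the log2 ratio is labelled over unlabelled CPM, and all intervals are exact 95% intervals that cover counting error only. The labelled and unlabelled cells had like depths, with medians of 6166 and 6262 UMIs. The medians were 6186 and 6263 UMIs in the mesoderm gate. Mitochondrial UMIs were 1.11% of the labelled total and 1.15% of the unlabelled, and ribosomal protein UMIs were 27.5% and 27.1%. Of the cells called female from *Xist* UMIs 12.3% were labelled, and of those called male from Y-linked UMIs 12.5%. The barcodes of 4 labelled cells also occurred in an earlier library. A second EHF table held the same counts in all places and was not counted again.

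Most labelled cells held a single reporter molecule. There were 243 cells with 1 reporter UMI, 75 with 2, 20 with 3, 7 with 4 and 1 with 5. The label was therefore near its limit of detection, and the unlabelled group can hold recombined cells whose reporter was not captured. When each cell was thinned at random to 3500 UMIs, 239 of the 2739 cells (8.73%) had a reporter UMI, against 12.6% with all UMIs. The first cells inside the depth limit had 3500 UMIs (no reporter UMI) and 3508 UMIs (1 reporter UMI), and the last outside it had 3490 (none) and 3494 (1).

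The label was most frequent in cells that held transcripts of the presomitic mesoderm and the streak. Cells were gated by a UMI in at least 2 genes of a short list, so that gates overlap and are not cell types. A UMI was found in 46.1% (41.0 to 51.2) of 382 cells of the presomitic gate (*Tbx6*, *Msgn1*, *Dll1*, *Dll3*, *Hes7*, *Rspo3*, *Lfng*). The share was 40.2% (35.5 to 45.1) in the mesoderm gate and 37.6% (31.8 to 43.8) of 263 cells in the somitic gate (*Meox1*, *Tcf15*, *Foxc1*, *Foxc2*, *Aldh1a2*, *Meox2*). In the caudal epiblast gate, which holds *T* and *Nkx1-2* among its genes, 32.1% (27.9 to 36.6) of 464 cells were labelled. The intervals of the presomitic and mesoderm gates overlap, as do those of the mesoderm, somitic and caudal epiblast gates. These gates share cells and are given in order only as a description.

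The share was lower in mesoderm of other fates and lowest in ectoderm. In the allantois and lateral mesoderm gate 12.4% (9.61 to 15.7) of 483 cells were labelled, in the endothelium gate 6.06% (2.94 to 10.9) of 165, and in the blood gate 5.26% (2.66 to 9.22) of 209. The cardiac gate (*Nkx2-5*, *Tbx5*, *Tbx20*, *Gata5*, *Myl7*, *Tnnt2*, *Tnnc1*, *Csrp3*) had 9 labelled cells of 178, 5.06% (2.34 to 9.38). Its interval lies wholly below those of the presomitic, mesoderm and somitic gates. The neural gate had 3.46% (1.59 to 6.47) of 260 and the surface ectoderm gate 3.95% (0.822 to 11.1) of 76. The chorionic gate, whose genes mark extraembryonic ectoderm that does not pass through the streak, had 7 labelled cells of 454, or 1.54% (0.622 to 3.15), at a median of 7373.5 UMIs against 6253 over all cells. After thinning, this background was 0.881% (0.240 to 2.24), while the presomitic gate kept 33.8% (29.0 to 38.7) and the cardiac gate 2.25% (0.615 to 5.65). The thinned cardiac and chorionic intervals overlap. With all UMIs, 5 of the 178 cardiac-gate cells held at least 2 reporter UMIs (2.81%, 0.918 to 6.43) and 0 of the 454 chorionic-gate cells (0 to 0.809%). The reporter level was 11.5 CPM (6.72 to 18.5) in the cardiac and 2.03 CPM (0.816 to 4.18) in the chorionic gate, with intervals that do not overlap. The node gate (32 cells) had 9 labelled cells, 28.1% (13.7 to 46.7), and the endoderm gate 7.22% (2.95 to 14.3) of 97. The visceral endoderm gate held 669 cells, more than any other, and 9.42% (7.31 to 11.9) were labelled, or 4.93% (3.42 to 6.86) after thinning. Of its 63 labelled cells, 31 were also in the mesoderm gate. A UMI of *Apoa1*, 1 of its genes, was found in 36.3% of chorionic-gate cells outside the mesoderm gate, so the gate also admits other tissues. Cells in no gate (419) had 5.97% (3.90 to 8.68).

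**Figure D1:**
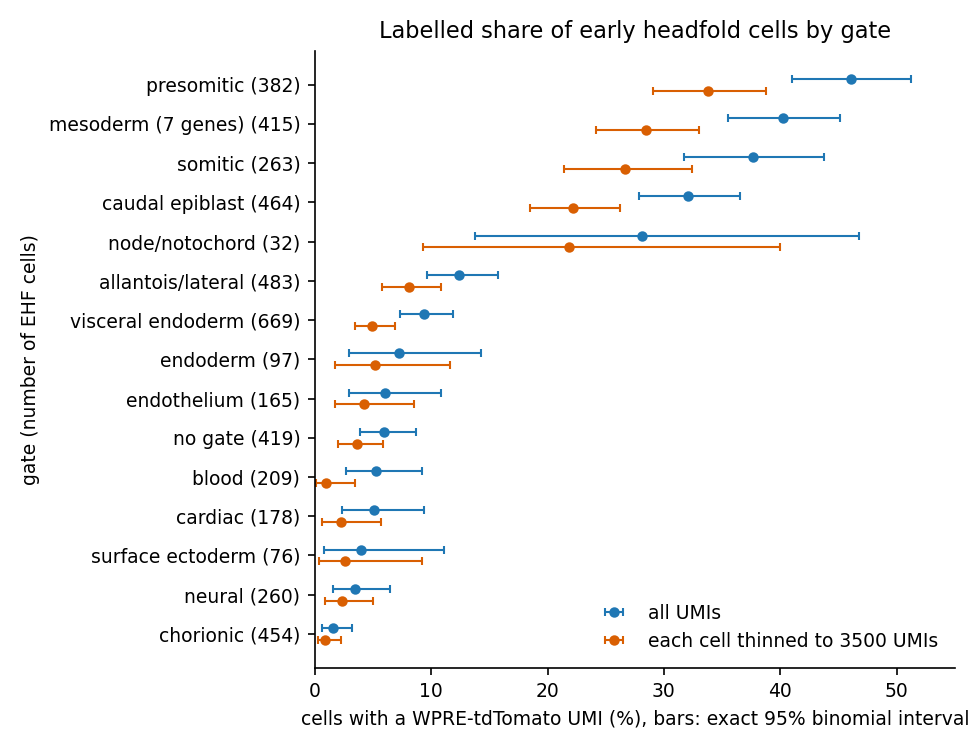
Share of EHF cells with at least 1 WPRE-tdTomato UMI (x axis, percent) in each gate (y axis, number of cells in brackets), with all UMIs (blue) and after each cell was thinned to 3500 UMIs (orange); bars are exact 95% binomial intervals. The presomitic, mesoderm, somitic and caudal epiblast gates stand at 22.2% to 46.1% on either scale, and the chorionic gate at 1.54% and 0.881%.

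Transcripts of *T* itself tracked the label, although they were not part of the rule. A *T* UMI was found in 58.7% (53.3 to 63.9) of labelled and 15.3% (13.9 to 16.8) of unlabelled cells, or 48.3% and 11.5% after thinning. In chorionic-gate cells outside the mesoderm gate (449 cells, median 7348 UMIs) the shares were 6.90% with all UMIs and 3.56% thinned. The *T* level was 287 CPM in labelled cells (665 UMIs) and 56.0 CPM in unlabelled cells (917 UMIs). The log2 ratio was 2.36 (2.21 to 2.50). *T* (chromosome 17, 8434423 to 8442496, plus strand, GRCm38) is also the locus that carries the Cre.

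Read the other way, the labelled share was higher in cells with more *T* UMIs. It was 6.59% (5.58 to 7.72) of 2169 cells with no *T* UMI, 26.1% (20.8 to 32.0) of 253 cells with 1, and 41.2% (33.7 to 49.0) of 170 cells with 2 to 3. With 4 to 7 UMIs it was 44.0% (34.5 to 53.9) of 109 cells, and with 8 or more 19 of 38 cells were labelled (33.4 to 66.6%). The intervals of the last 3 classes overlap. In the mesoderm gate 31.5% (25.7 to 37.8) of the 238 cells with no *T* UMI were already labelled, and 60.7% (40.6 to 78.5) of the 28 cells with 4 to 7. In all, 143 labelled cells, 75 of them in the mesoderm gate, held no *T* UMI at this depth.

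**Figure D2:**
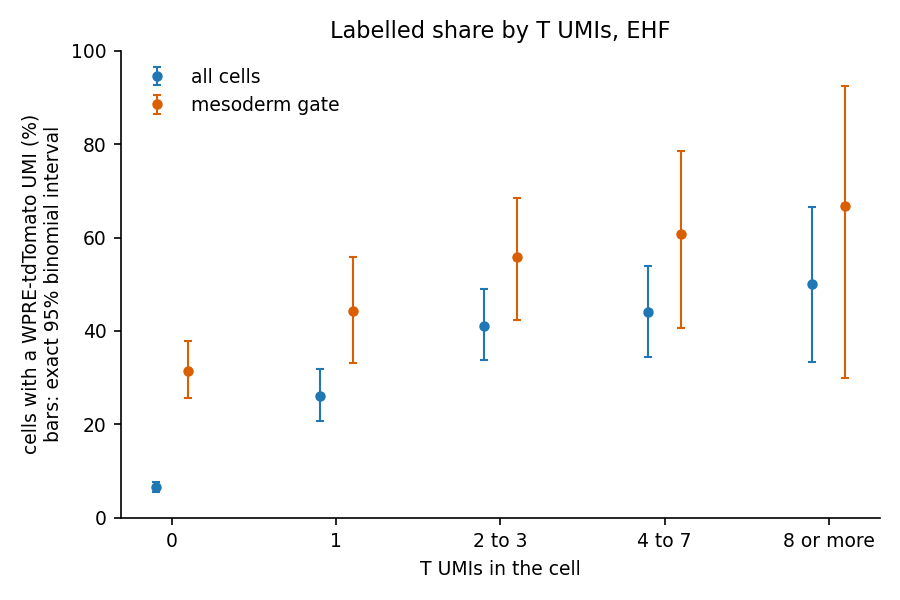
Share of EHF cells with a WPRE-tdTomato UMI (y axis, percent) by the number of T UMIs in the cell (x axis), for all cells (blue) and the mesoderm gate (orange); bars are exact 95% binomial intervals. The share among all cells goes from 6.59% with no T UMI to 19 of 38 cells with 8 or more, and cells of the mesoderm gate without a T UMI stand at 31.5%.

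Over all cells the labelled group was enriched in genes of the streak and of the presomitic and somitic mesoderm. Genes with at least 100 UMIs over both groups were compared, 9033 in number. Of these, 186 (2.06%) were 2-fold or more higher in labelled cells and 567 (6.28%) were 2-fold or more lower, and the median log2 ratio of all was −0.03. Labelled cells held 2317029 UMIs in total and unlabelled cells 16367681. A gene found mainly in unlabelled cells therefore reached 100 UMIs at a lower level than one found mainly in labelled cells. The 2 counts cannot be set against each other for this reason. The leading gene was *Aldh1a2*, which encodes the enzyme that makes retinoic acid in somitic mesoderm, with 177 CPM (411 UMIs) against 23.8 CPM (390 UMIs). Its log2 ratio was 2.90 (2.69 to 3.10). *Mixl1*, a homeobox gene of the streak, followed with 59.1 against 8.0 CPM, a log2 ratio of 2.89 (2.53 to 3.24). These 2 ratios do not differ beyond their counting error.

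Genes of the presomitic and paraxial mesoderm were among the next leaders. *Dll1* and *Dll3*, Notch ligands of the segmentation clock, stood at 68.2 against 10.5 CPM and 55.7 against 9.65 CPM, log2 ratios of 2.70 (2.38 to 3.02) and 2.53 (2.18 to 2.87). *Hes7*, the clock's oscillating repressor, was at 65.2 against 11.7 CPM, a log2 ratio of 2.48 (2.16 to 2.80). *Tbx6*, the T-box factor that holds cells to a paraxial fate, was at 85.0 against 13.1 CPM, a log2 ratio of 2.69 (2.41 to 2.98). *Pcdh19*, a protocadherin of paraxial mesoderm, had a log2 ratio of 2.41 (2.18 to 2.64). *Meox1*, a homeobox gene of the somites, was at 45.3 against 7.03 CPM, a log2 ratio of 2.69 (2.29 to 3.08). *Mesp1*, which marks nascent mesoderm and is required for the heart's progenitors to leave the streak, was at 81.1 against 12.7 CPM, a log2 ratio of 2.67 (2.38 to 2.97).

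Outside these families, *Gal*, the galanin neuropeptide precursor, was at 105 against 16.9 CPM, a log2 ratio of 2.64 (2.38 to 2.89). *Car3*, a carbonic anhydrase, was at 56.5 against 9.84 CPM and *Arg1*, arginase 1, at 32.4 against 5.19 CPM. Their log2 ratios were 2.52 (2.18 to 2.86) and 2.64 (2.17 to 3.11). *Hoxaas3*, an antisense transcript of the HoxA cluster, was at 68.2 against 12.3 CPM with a log2 ratio of 2.47 (2.16 to 2.78). It overlaps HoxA genes on the other strand, and the strand used for counting is not given in the sources used here. *Rnf213*, a ubiquitin ligase, and *Chst7*, a sulfotransferase, complete the leading 15, with log2 ratios of 2.74 (2.26 to 3.23) and 2.44 (1.85 to 3.02). Among all 15, *Chst7* had the widest interval and the fewest UMIs, 46 in labelled and 60 in unlabelled cells.

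*Mesp1* was among the 15 leading genes over all cells and *Sgk1*, a serum- and glucocorticoid-regulated kinase, among those of the mesoderm gate. Their promoter windows are shown because they were the 2 leading genes with both a T-box and a LEF/TCF motif, the DNA letters read by T-box factors and by the effectors of Wnt signalling. Capitals mark AGGTGTGA (T-box; on either strand) and CTTTGAT (LEF/TCF; on either strand), which do not overlap here. The windows are RefSeq sequences of build GRCm38.p6, from 250 bases before to 50 after the start, written 5′ to 3′ along the gene: *Mesp1* on the minus strand at chr7:79793541-79793840 and *Sgk1* on the plus strand at chr10:21978422-21978721.
Mesp1: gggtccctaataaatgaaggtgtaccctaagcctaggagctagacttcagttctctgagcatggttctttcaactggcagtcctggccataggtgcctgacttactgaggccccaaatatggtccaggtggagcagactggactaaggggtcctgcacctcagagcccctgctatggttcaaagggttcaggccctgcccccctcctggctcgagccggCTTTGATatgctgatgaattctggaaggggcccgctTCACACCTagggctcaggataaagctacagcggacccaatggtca
Sgk1: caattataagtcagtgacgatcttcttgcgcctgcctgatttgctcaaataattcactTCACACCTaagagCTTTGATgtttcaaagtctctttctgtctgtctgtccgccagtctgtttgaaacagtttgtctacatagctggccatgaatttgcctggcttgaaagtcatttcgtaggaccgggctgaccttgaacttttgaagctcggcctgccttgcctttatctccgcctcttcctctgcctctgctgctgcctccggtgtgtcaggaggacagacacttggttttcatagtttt
Of the 25 genes that led in either comparison on the higher side, 16 had a window, and these 16 genes had 24 windows. Each motif was in 2 of the 24, those of *Mesp1* and *Sgk1*. Of all 32851 windows, 1.28% held AGGTGTGA and 3.73% held CTTTGAT. The *Sgk1* window is at a start inside the annotated gene, which spans 21882184 to 21999903 on chromosome 10. Which start the cells used was not tested. The matches are a description of the letters and not of binding.

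The 15 genes with the lowest ratios over all cells had few UMIs in labelled cells. *Spp2*, a secreted phosphoprotein, had 1 UMI in labelled and 250 in unlabelled cells, a log2 ratio of −5.15 (−10.4 to −2.65). *Sox21*, a neural SoxB2 factor, had 1 and 214 UMIs, with −4.92 (−10.2 to −2.43). Such ratios rest on a single labelled UMI, as did those of *Lcp1*, *Irx4*, *Mtus2*, *Elf3*, *Ihh*, *Fabp2*, *C77370*, *2810459M11Rik*, *Hba-a1* and *Arap2*. *Rhox6*, a homeobox gene of extraembryonic ectoderm, had 4 against 485 UMIs, −4.10 (−5.98 to −2.74). *Gtsf1l* and *Trf*, which encodes transferrin, had 2 UMIs each in labelled cells and log2 ratios of −3.93.

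The gene lists sort genes by role. They hold several of the leading genes above and were chosen with earlier results known, so they add no separate support. Over all 9033 genes, 2.06% were 2-fold or more higher and 6.28% lower. Of 16 streak and caudal genes with enough UMIs, 12 were 2-fold or more higher and 1 was lower, with a median log2 ratio of 1.65. The one that was lower is *Eomes*, a T-box gene of the early streak and of extraembryonic ectoderm, at 7.34 against 17.1 CPM (log2 ratio −1.22, −2.02 to −0.52). In the presomitic list 8 of 10 genes were 2-fold or more higher (median 2.45), in the paraxial list 6 of 6 (median 1.71) and in the Hox list 7 of 10 (median 1.53), none of them 2-fold lower. Among mesenchymal genes 3 of 9 were higher and 1 lower (median 0.71), while of 8 epithelial genes 5 were 2-fold or more lower and none higher (median −1.15). *Cited1*, listed as presomitic, was not higher, with 248 against 318 CPM and a log2 ratio of −0.36 (−0.49 to −0.24).

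Most lists of other tissues had medians below that of all genes, with node and cranial mesoderm above it. All 10 chorionic ectoderm genes (median −2.72), all 10 visceral endoderm genes (median −3.23) and 8 of 9 blood genes (median −1.41) were 2-fold or more lower. Of the cardiac list, 3 of 11 genes were lower and 1, *Actc1*, was higher (median −0.62), and of the endothelial list 1 of 7 was lower (median −0.69). The neural list had 3 of 10 lower (median −0.91), the endoderm list 3 of 5 (median −1.24), the epiblast list 3 of 8 with 1 higher (median −0.60), and the surface ectoderm list its 1 counted gene (−1.28). The single counted node gene was at 0.53 and the 3 allantois genes had a median of −1.85. Lateral and intermediate mesoderm (11 genes, median −0.02) and cranial and pharyngeal mesoderm (7 genes, median 0.42) had no median past 2-fold.

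Signalling lists are given beside the shares over all genes, 2.06% higher and 6.28% lower. In lists this short, a single gene past 2-fold is no result about the list. Of 9 Wnt response genes 4 were 2-fold or more higher (median 0.99), among them *Lef1*, a Wnt effector, at 157 against 40.8 CPM (log2 ratio 1.95, 1.76 to 2.13). FGF response genes had 2 of 10 higher (median 0.52), Notch genes 1 of 7 (median 0.25), and retinoic acid genes 3 of 6 with 1 lower (median 0.98). The lower one is *Cyp26a1*, the enzyme that degrades retinoic acid, at 16.0 against 33.4 CPM (−1.06, −1.58 to −0.58). BMP response genes had 1 of 8 lower and none higher (median −0.27), and migration genes 1 of 10 higher (median −0.37). Cell cycle (23 genes, median 0.05) and glycolysis genes (12 genes, median −0.03) were near 0, and 5 dissociation stress genes had a median of −0.54, with none past 2-fold.

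**Figure D3:**
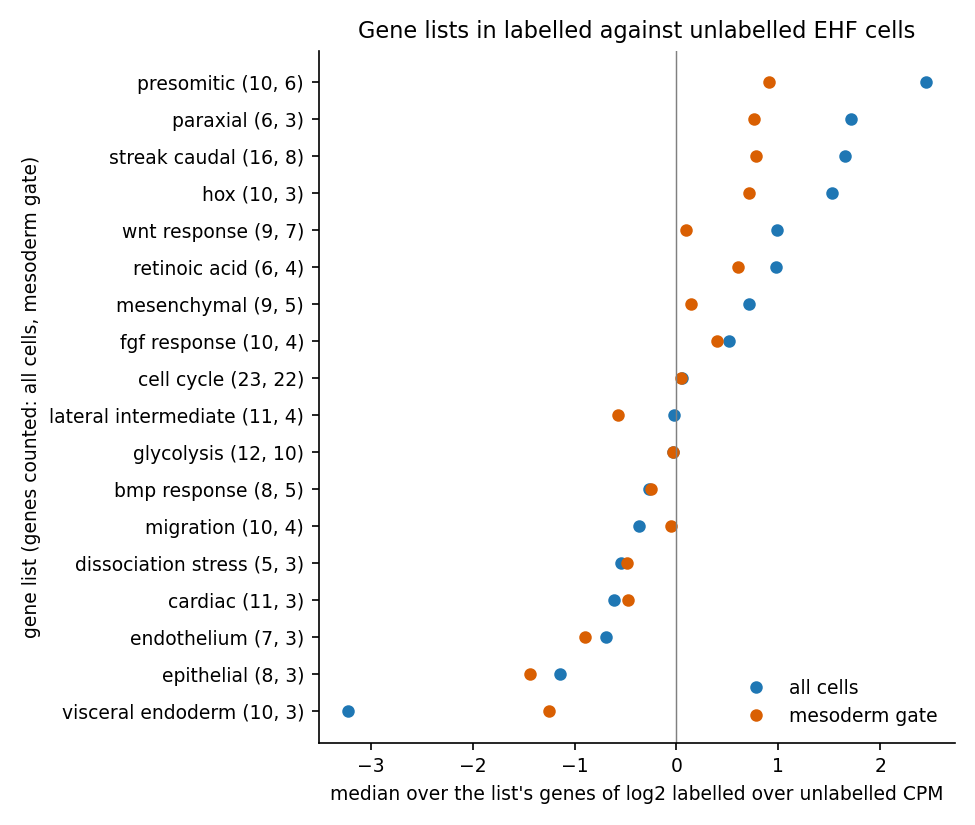
Median log2 ratio of labelled over unlabelled CPM (x axis) for each gene list with at least 3 counted genes in the mesoderm gate (y axis; genes counted in all cells and in the mesoderm gate in brackets), for all cells (blue) and the mesoderm gate (orange). Presomitic genes stand at 2.45 and 0.91, and visceral endoderm genes at −3.23 and −1.25.

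The comparison over all cells sets a group rich in paraxial cells against one rich in other tissues. It was therefore repeated within the mesoderm gate. There 3638 genes had at least 100 UMIs, outside the 7 gate genes. Of these, 8 (0.22%) were 2-fold or more higher in labelled cells and 21 (0.577%) were 2-fold or more lower, and the median log2 ratio was −0.0035. The gate was not of 1 composition. The presomitic gate held 67.7% (60.0 to 74.7) of its labelled and 41.9% (35.7 to 48.3) of its unlabelled cells, and the caudal epiblast gate 35.3% and 23.0%. The somitic gate held 55.7% and 54.0%, and the visceral endoderm gate 18.6% and 14.1%. The cardiac gate held 2.40% (0.656 to 6.02) and 8.87% (5.64 to 13.1), and the endothelium gate 2.40% and 7.66%. The part of this makeup in the gene differences was not tested.

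*Gal* had the largest ratio in the mesoderm gate. It stood at 116 CPM (136 UMIs) in labelled and 33.1 CPM (59 UMIs) in unlabelled cells, a log2 ratio of 1.80 (1.35 to 2.27). After thinning, 21.6% (15.6 to 28.6) of labelled and 10.1% (6.63 to 14.5) of unlabelled cells had a *Gal* UMI (31.1% and 14.1% with all UMIs). In chorionic-gate cells the thinned share was 0.445%. *Fabp7*, a fatty acid binding protein, and *Car3* followed, at 57.8 against 19.6 CPM and 80.8 against 31.4 CPM. Their log2 ratios were 1.56 (0.95 to 2.19) and 1.36 (0.87 to 1.87), which overlap that of *Gal*.

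The caudal transcription factors were also higher within the gate. *Cdx1*, a caudal-type homeobox gene upstream of the Hox genes, was at 357 against 153 CPM, a log2 ratio of 1.23 (1.0 to 1.45). *T* was at 221 CPM (260 UMIs) against 106 CPM (189 UMIs), 1.06 (0.78 to 1.34). *Hes7* was at 65.5 against 28.6 CPM and *Tbx6* at 112 against 57.8 CPM, with log2 ratios of 1.19 (0.67 to 1.73) and 0.96 (0.58 to 1.34). The thinned shares of cells with a *Tbx6* UMI were 32.9% and 17.3%, and 46.7% and 27.0% with all UMIs. *Cdx2*, the other Cdx gene with enough UMIs, was at 162 against 116 CPM (0.48, 0.18 to 0.77).

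Secreted ligands of the caudal signals had ratios under 2-fold. *Fgf8* was at 75.7 against 40.4 CPM (log2 ratio 0.91, 0.44 to 1.37) and *Fgf3* at 70.6 against 58.9 CPM (0.26, −0.17 to 0.69). *Wnt5a* was at 48.5 against 28.1 CPM (0.79, 0.22 to 1.37). *Rspo3*, a secreted enhancer of Wnt signalling, was at 280 against 143 CPM (0.97, 0.73 to 1.22). Of the targets of these signals, *Spred2*, an inhibitor of the Ras and MAP kinase path, was at 55.3 against 29.2 CPM (0.92, 0.37 to 1.48). *Sp5*, a Wnt target, was at 62.1 against 38.2 CPM (0.70, 0.21 to 1.20). *Axin2*, the usual readout of Wnt signalling, was at 32.3 against 35.9 CPM (−0.15, −0.77 to 0.45). The Wnt response list had a median of 0.09 over 7 genes and the FGF response list 0.40 over 4, with no gene past 2-fold.

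Genes of retinoic acid metabolism were not past 2-fold on the higher side. *Aldh1a2* stood at 280 CPM (329 UMIs) against 140 CPM (250 UMIs), a log2 ratio of 1.0 (0.75 to 1.24) that is just under 2-fold. A UMI of it was found in 50.9% (43.1 to 58.7) of labelled and 29.4% (23.8 to 35.5) of unlabelled cells after thinning, and in 63.5% and 38.7% with all UMIs. *Crabp1* and *Crabp2*, which bind retinoic acid in the cytoplasm, had log2 ratios of 0.25 (0.04 to 0.46) and 0.33 (−0.05 to 0.70). *Cyp26a1*, with 13 labelled and 74 unlabelled UMIs, fell short of 100 and had −1.91 (−2.88 to −1.05).

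Other leading genes on the higher side were *Agtrap* (59.5 against 29.2 CPM), *Sgk1* (57.8 against 28.6 CPM) and *Dnmt3a*, a DNA methyltransferase (52.7 against 28.6 CPM). *Sgk1* had opposite signs in the 2 comparisons, 1.02 (0.47 to 1.57) in the gate and −0.42 (−0.73 to −0.12) over all cells. *Cited1*, too, stood on the other side within the gate, at 323 against 179 CPM (0.85, 0.63 to 1.07). *Pou5f1*, the pluripotency factor that persists in caudal progenitors, was at 372 against 202 CPM (0.88, 0.68 to 1.09).

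**Figure D4:**
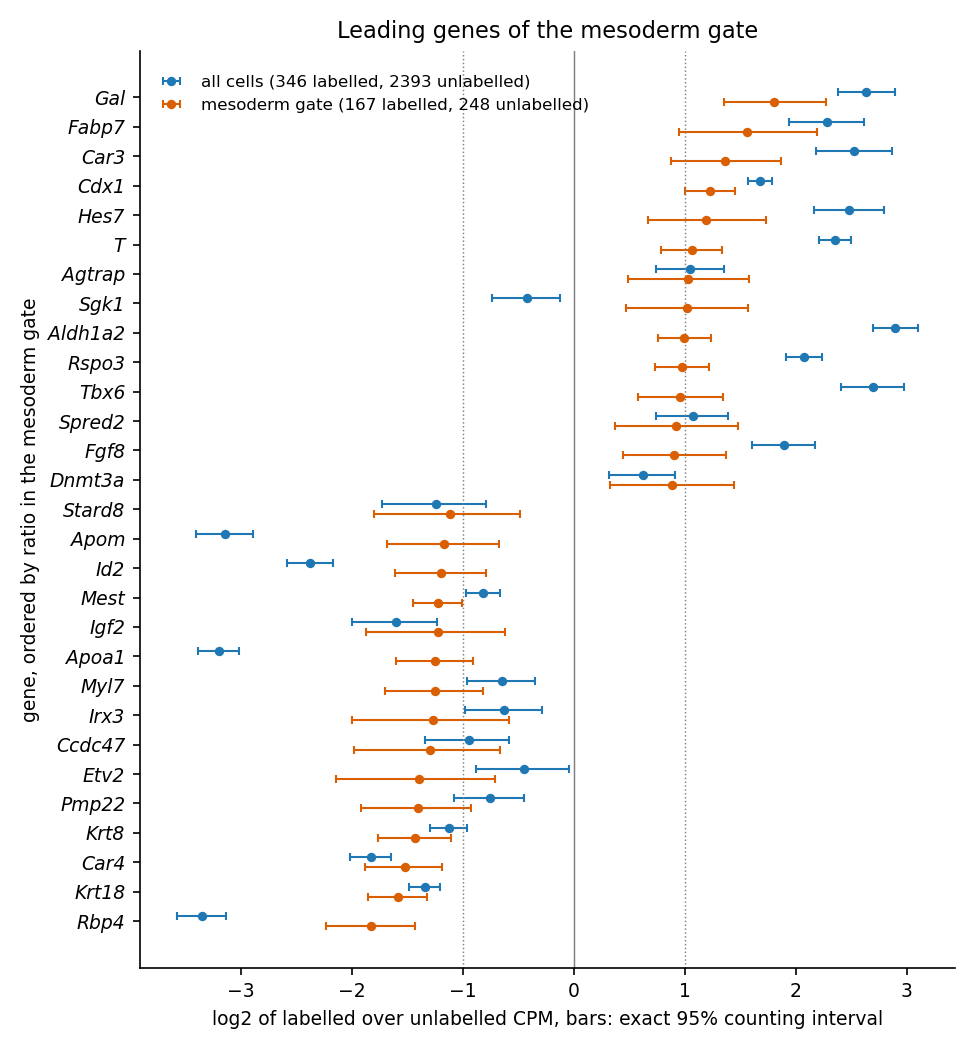
Log2 ratio of labelled over unlabelled CPM (x axis) of leading genes on each side in the mesoderm gate (y axis, ordered by their ratio there), for all cells (blue) and the mesoderm gate (orange); bars are exact 95% counting intervals and dotted lines mark 2-fold. Gal stands at 1.80 in the gate, Rbp4 at −1.83, and Sgk1 lies on opposite sides of 0 in the comparisons.

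Keratins and *Car4* led the lower side among genes that many cells held. *Krt18* and *Krt8*, the pair of simple-epithelial keratins, were at 123 against 371 CPM and 84.2 against 227 CPM. Their log2 ratios were −1.59 (−1.86 to −1.33) and −1.43 (−1.76 to −1.11). After thinning, 23.4% (17.2 to 30.5) of labelled and 34.7% (28.8 to 41.0) of unlabelled cells had a *Krt18* UMI (36.5% and 46.4% with all UMIs). The thinned intervals overlap. The 5 highest labelled cells held 43.4% of the labelled *Krt18* UMIs, and the 5 highest unlabelled cells 33.1% of the unlabelled ones. For *Krt8* these were 36.4% and 30.4%. In chorionic-gate cells, which express keratins, the thinned share was 82.2%. *Epcam*, the third counted epithelial gene, was at 31.5 against 38.2 CPM (−0.28, −0.90 to 0.32). *Car4*, a carbonic anhydrase, was at 74.0 against 213 CPM (−1.53, −1.88 to −1.19).

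Some genes of cardiac, endothelial and lateral mesoderm were 2-fold or more lower in the labelled cells of the gate. *Myl7*, the atrial myosin light chain, was at 48.5 CPM (57 UMIs) against 116 CPM (206 UMIs), a log2 ratio of −1.25 (−1.70 to −0.82). *Etv2*, the factor that starts the endothelial and blood lineages, was at 18.7 against 49.4 CPM (−1.40, −2.15 to −0.71). *Irx3*, *Bmp4* and *Hand1* of the lateral and intermediate list had −1.27 (−2.0 to −0.59), −0.81 (−1.31 to −0.32) and −0.34 (−0.65 to −0.03). *Id2*, a BMP target, was at 56.1 against 128 CPM (−1.19, −1.61 to −0.79). *Mest* and *Igf2*, imprinted genes expressed from the paternal allele, were at 188 against 440 CPM and 24.7 against 57.8 CPM, with −1.23 (−1.45 to −1.01) and −1.23 (−1.88 to −0.62). *Pmp22*, *Ccdc47* and *Stard8* complete the set, with −1.41, −1.30 and −1.12. *Pmp22* and *Stard8* rested on few cells. The 5 highest labelled cells held 59.1% and 74.1% of their labelled UMIs, and the 5 highest unlabelled cells 48.6% and 44.9% of the unlabelled ones. Thinned shares of cells were 8.98% and 10.9% for *Pmp22* and 4.19% and 8.47% for *Stard8*, with intervals that overlap. Of the cardiac list 3 genes were counted, all below 0 (median −0.48) and 1 past 2-fold, and of the lateral and intermediate list 4 genes, all below 0 (median −0.57).

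The visceral endoderm genes on the lower side rested on few cells. *Rbp4*, the plasma retinol carrier, was at 54.4 CPM (64 UMIs) against 193 CPM (344 UMIs), a log2 ratio of −1.83 (−2.23 to −1.44). Its 5 highest unlabelled cells held 85.8% of the unlabelled UMIs, and the 5 highest labelled cells held 50% of the labelled ones. The thinned share of cells with a *Rbp4* UMI was 13.2% in labelled and 12.1% in unlabelled cells of the gate, with intervals that overlap, and 12.7% in chorionic-gate cells (22.2%, 18.5% and 24.5% with all UMIs). *Apoa1*, an apolipoprotein, behaved alike, at 77.4 against 184 CPM (−1.25, −1.60 to −0.91) with thinned shares of 16.2% and 15.3%. *Apom* and *Ttr*, the transthyretin gene, had −1.17 (−1.69 to −0.68) and −1.12 (−1.43 to −0.82). Without cells of the visceral endoderm gate, the *Rbp4* ratio was −0.0013 (−0.74 to 0.71) and that of *Apom* −0.09. *Apoa1* had 0.33 (−0.39 to 1.04), but it is 1 of the genes of that gate, so its change was set in part by the choice of cells. In this setting 5 genes were 2-fold or more higher and 12 lower.

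A stricter gate, a UMI in at least 3 of the 7 genes, held 96 labelled and 111 unlabelled cells. *Gal* (1.93, 1.20 to 2.73), *Fabp7* (1.54, 0.65 to 2.50) and *Cdx1* (1.02, 0.70 to 1.35) were still 2-fold or more higher there, *Fabp7* with under 100 UMIs. With 2062 genes at 100 UMIs or more, 2 were past 2-fold on the higher side and 0 on the lower. *T* had 0.57 (0.19 to 0.95), *Aldh1a2* 0.67 (0.38 to 0.97), *Rspo3* 0.78 (0.46 to 1.10) and *Tbx6* 0.42 (−0.08 to 0.92). The keratins did not keep their difference, with *Krt18* at −0.21 (−0.70 to 0.28) and *Krt8* at −0.06 (−0.65 to 0.54). *Car4* (−0.31, −0.85 to 0.22) and *Myl7* (−0.46, −1.09 to 0.15) also had intervals that include 0. *Etv2*, *Irx3*, *Id2* and *Mest* stayed below it, at −1.20, −1.09, −0.93 and −0.78. *Pmp22* and *Stard8* turned to 0.16 (−0.80 to 1.12) and 0.29 (−0.88 to 1.48).

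The 7 gate genes chose the cells and are given as a description. A *Dll1* UMI was found in 48.5% of labelled and 30.6% of unlabelled gate cells, and a *Pcdh19* UMI in 68.3% and 59.7%. A *Tcf15* UMI was found in 25.1% of labelled and 41.9% of unlabelled cells. For *Meox1*, also a gene of the somites, the shares were 33.5% and 25.4%, with intervals that overlap. *Tcf15*, a bHLH factor of the forming somites, was the gate gene with the lowest ratio, at 96.1 against 176 CPM (−0.87, −1.19 to −0.55), and *Dll1* the one with the highest, 0.65 (0.26 to 1.04). Of cranial genes, *Alx1* had 4 labelled and 43 unlabelled UMIs (−2.83, −4.77 to −1.37). It was under 100 UMIs and was chosen after its values were seen. Among the lists in the gate, 2 of 8 streak and caudal genes (median 0.78) and 1 of 6 presomitic genes (median 0.91) were 2-fold or more higher, and none of 3 paraxial (median 0.77) or 3 Hox genes (median 0.71). On the lower side were 2 of 3 epithelial (median −1.43), 1 of 3 endothelial (median −0.89), 3 of 3 visceral endoderm (median −1.25) and 1 of 5 BMP response genes (median −0.25). Over all counted genes of the gate the shares were 0.22% higher and 0.577% lower, and a single gene is no result about its list. No gene was past 2-fold among mesenchymal (5 genes, median 0.14), epiblast (2, median 0.39), Notch (2, median −0.30), migration (4, median −0.05), cell cycle (22, median 0.05), glycolysis (10, median −0.03) and dissociation stress genes (3, median −0.49). Of the remaining lists, blood, neural, allantois and cranial mesoderm had 1 counted gene each and surface ectoderm, endoderm, node and chorionic ectoderm had none.

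Hox transcripts differed by paralog group, the position of a gene within its cluster, which follows the order of expression along the body axis. UMIs were summed over the genes of a group. Over all cells the ratio was 1.48 (1.36 to 1.59) for group 1, at 348 against 125 CPM, and 1.61, 1.76, 1.77 and 1.79 for groups 2 to 5. Groups 7, 8 and 9 had 1.03 (0.41 to 1.60), 0.98 (0.47 to 1.47) and 0.89 (0.44 to 1.32). Group 6 (*Hoxb6*, *Hoxc6*), with 22 labelled and 164 unlabelled UMIs, stood at −0.08 (−0.79 to 0.57).

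Within the mesoderm gate the intervals of groups 1, 2 and 5 lay above 0 and that of group 6 below it. Groups 1 and 2 had 0.73 (0.53 to 0.92) and 0.50 (0.19 to 0.81), and group 5 had 1.12 (0.31 to 1.96). Groups 3 and 4 had 0.81 (−0.00 to 1.62) and 0.75 (−0.04 to 1.54). Group 6 had 8.51 CPM (10 UMIs) against 24.7 CPM (44 UMIs), a ratio of −1.54 (−2.69 to −0.53). Groups 7 to 9 had −0.57 (−1.98 to 0.70), −0.35 (−1.36 to 0.60) and −0.70 (−1.45 to 0.01). Group 10 had 2 and 10 UMIs (−1.72, −4.95 to 0.51) and group 13 had 3 in each (0.60, −2.30 to 3.5). The intervals of groups 3, 4, 7 to 10 and 13 include 0, so that a difference was not detectable at their depth.

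**Figure D5:**
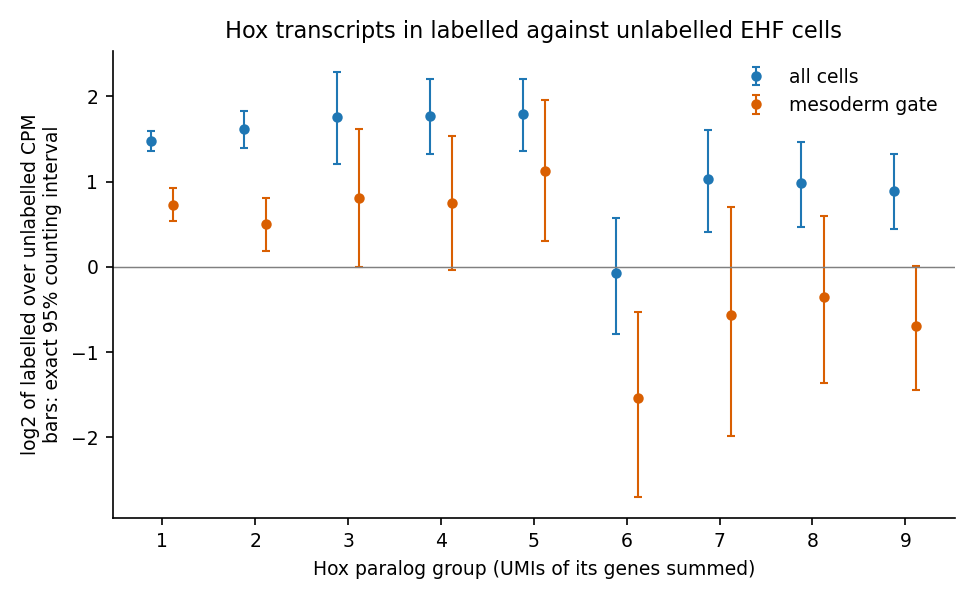
Log2 ratio of labelled over unlabelled CPM (y axis) of Hox UMIs summed by paralog group (x axis), for all cells (blue) and the mesoderm gate (orange); bars are exact 95% counting intervals. In the gate, group 5 stands at 1.12 and group 6 at −1.54.

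The differences depended on which cells were held alike. In the presomitic gate (176 labelled, 206 unlabelled cells) 1 of 3177 genes (0.0315%) was 2-fold or more higher and 10 (0.315%) were lower. *T* was at 372 against 328 CPM there, with a log2 ratio of 0.18 (−0.01 to 0.38), and *Gal* at 169 against 130 CPM (0.37, 0.07 to 0.67). *Mixl1* was at 86.3 against 48.9 CPM (0.82, 0.35 to 1.29) and *Krt18* at 70.6 against 144 CPM (−1.03, −1.42 to −0.66). Most caudal differences were smaller there than in the mesoderm gate. The streak and caudal list had a median of 0.19 over 8 genes, against 0.78 over 8 in the mesoderm gate.

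In the somitic gate (99 and 164 cells), whose genes do not include *T*, the caudal genes differed as in the mesoderm gate, with which it shares 93 labelled and 134 unlabelled cells. There 6 of 2366 genes (0.254%) were higher and 6 were lower. *T* stood at 179 against 82.9 CPM (1.11, 0.71 to 1.52), *Cdx1* at 344 against 145 CPM (1.25, 0.95 to 1.55) and *Gal* at 103 against 35.5 CPM (1.53, 0.95 to 2.13). *Myl7* stood at 48.3 against 153 CPM (−1.66, −2.25 to −1.12), while the keratins *Krt8* (−0.49, −1.08 to 0.07) and *Krt18* (−0.34, −0.83 to 0.14) had intervals that include 0. Hox group 4 stood at 27.8 against 5.46 CPM, with 19 and 6 UMIs (2.35, 0.97 to 3.96).

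In the caudal epiblast gate (149 and 315 cells), which was chosen in part by *T* and *Mixl1*, 12 of 3890 genes (0.308%) were higher and 16 (0.411%) were lower. The presomitic list was higher there, with 6 of 8 genes past 2-fold and a median of 1.18. *Rspo3* was at 263 against 114 CPM (1.21, 0.96 to 1.46), *Mesp1* at 83.9 against 32.3 CPM (1.38, 0.91 to 1.84) and *Dll1* at 74.7 against 33.7 CPM (1.15, 0.68 to 1.62). Of 5 epithelial genes counted, 3 were 2-fold or more lower (median −1.18). In the allantois and lateral gate (60 and 423 cells), 49 of 4447 genes (1.10%) were higher and 182 (4.09%) lower. *T* was at 193 against 30.5 CPM (2.66, 2.24 to 3.08) and *Mesp1* at 199 against 31.4 CPM (2.66, 2.25 to 3.08) there.

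Within the labelled cells, the 103 with at least 2 reporter UMIs were set against the 243 with 1. They were deeper, with medians of 6651 and 5759 UMIs. Of 2978 genes, 3 (0.101%) were 2-fold or more higher and 12 (0.403%) were lower in the former. *Mixl1* was at 104 against 36.7 CPM (1.51, 1.0 to 2.02) and *Sgk1* at 66.6 against 31.6 CPM (1.08, 0.48 to 1.67), while *T* was at 338 against 262 CPM (0.37, 0.14 to 0.60). *Aldh1a2* (0.05, −0.25 to 0.35) and *Tbx6* (0.06, −0.38 to 0.50) had intervals around 0. *Tcf15* was at 24.8 against 70.3 CPM (−1.50, −2.29 to −0.79). *Mixl1* and *Tcf15* thus lay on opposite sides by reporter UMIs, but *Aldh1a2*, like *Tcf15* a gene of the somitic gate, did not follow *Tcf15*.

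In the earlier libraries the same comparison held fewer labelled cells. In OB-EB 47 of 1103 cells at or above 3500 UMIs were labelled (4.26%), and in MS-LS 66 of 2415 (2.73%). These 47 cells held 50 reporter UMIs and the 66 held 72. The chorionic share in EHF was 1.54% (0.622 to 3.15), and no such background was taken in the earlier libraries. The authors report that tdTomato reads were too few at these stages to identify positive cells. Part of the cells called labelled here can therefore be background. In OB-EB 36 of 5134 genes (0.701%) were 2-fold or more higher and 395 (7.69%) were lower. In MS-LS 133 of 7791 (1.71%) were higher and 773 (9.92%) were lower. Labelled cells held 251032 UMIs in OB-EB and 447755 in MS-LS, against 5404913 and 14294357 in unlabelled cells. As in EHF, a gene found mainly in unlabelled cells therefore reached the UMI minimum at a lower level. With so few labelled UMIs, a gene near this minimum can also pass 2-fold by counting error. The higher and lower counts therefore cannot be set against each other, and part of the lower genes can be counting error. *T* was at 120 against 116 CPM in OB-EB (0.04, −0.54 to 0.57) and 53.6 against 37.7 CPM in MS-LS (0.51, −0.15 to 1.10), and both intervals lie below that of EHF. *Mesp1* was at 155 against 107 CPM (0.53, 0.03 to 1.0) in OB-EB and 136 against 58.1 CPM (1.23, 0.83 to 1.60) in MS-LS. *Myl7* had 0.83 (0.44 to 1.19) in MS-LS, where it was higher in labelled cells, and −0.32 (−0.88 to 0.19) in OB-EB. The cardiac list had 4 of 4 counted genes above 0 in MS-LS, with a median of 0.69. In EHF its median was −0.62 over 11 genes, so the 2 medians are over unlike sets of genes. Within the mesoderm gate of MS-LS (21 labelled, 191 unlabelled cells), 3 of 2094 genes were 2-fold or more higher and 34 were lower. The intervals of *Myl7* (0.25, −0.19 to 0.67), *Mesp1* (0.11, −0.35 to 0.54) and *T* (−0.37, −1.31 to 0.45) include 0 there. In the mesoderm gate of OB-EB (14 and 179 cells), 8 of 1526 genes were 2-fold or more higher and 37 were lower. *Mesp1* had −0.13 (−0.77 to 0.44), *Myl7* −0.61 (−1.36 to 0.06) and *T* −0.61 (−1.50 to 0.16) in it. The gene counts of both gates have the same limits, with 171972 labelled against 1507618 unlabelled UMIs in MS-LS and 85951 against 1036686 in OB-EB. The visceral endoderm list was lower over all cells in every library, with medians of −3.41 in OB-EB and −3.25 in MS-LS. Stage, embryos, interval after tamoxifen and library cannot be told apart in these values.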

How the data were processed

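Single cells of pooled embryos were profiled by the Chromium 3′ assay in 3 libraries. The authors aligned reads and counted UMIs with Cell Ranger 3.0.2 against GRCm38 with the reporter vector's sequences added, removed cells under 500 genes or 1000 UMIs or with a high mitochondrial share, and deposited raw counts per gene and cell without normalisation. R 3.6.1 and Seurat 3 are named in the submitters' processing notes.

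From the deposited counts, EHF cells with at least 3500 UMIs were divided by reporter UMIs and UMIs were summed per group. Ratios were taken for genes with at least 100 UMIs over both groups, without vector rows. Intervals are exact 95% intervals (Poisson for sums, conditional binomial for ratios, Clopper-Pearson for shares). A group at 0 was set to a floor of 3 UMIs. Thinning drew 3500 UMIs per cell without replacement. Depth was 3500 to 36920 UMIs per cell. The named genes were the 15 with the largest ratios on each side in each comparison with at least 1 UMI in each group, without mitochondrial, ribosomal protein, sex-linked and, in the mesoderm gate, gate genes, and members of 27 gene lists by role. Some of these are not reported here. The members, gates and lists were chosen with earlier results of these data known. Gates name cells by their transcripts and are not clusters. Doublets were kept. Scrublet called 13 cells (0.372%), too few to have worked, so the 5% with the highest scores were left out as an alternative. Other alternatives changed the label, depth limit, scaling, gene minimum, fold and gates. Positions came from GENCODE, which matched 376 of 377 named genes. The steps were tested on simulated data and run in Python 3.11.15 with scanpy 1.11.5, scipy 1.17.1 and pandas 2.3.3.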

Additional observations from a re-analysis of the deposited data

Results flagged for a closer look

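Rows of the reporter vector other than WPRE-tdTomato took no part in the comparisons and held UMIs in EHF cells at or above 3500 UMIs, with no control library to set them against. The NeoR/KanR row had 393 UMIs, 10.4 CPM in labelled and 22.5 CPM in unlabelled cells, a log2 ratio of −1.12 (−1.78 to −0.53). The SV40poly(A)signal row had 138 UMIs, at 2.59 and 8.06 CPM (−1.64, −3.11 to −0.48). The bGHpoly(A)signal row had 65 UMIs, at 13.4 and 2.08 CPM (2.69, 1.94 to 3.43), and 1.42% of the unlabelled cells held one. The PGKpoly(A)signal row had 17 UMIs. In the earlier libraries the NeoR/KanR ratio was 0.39 (−1.27 to 1.67) in OB-EB and 0.57 (−0.77 to 1.64) in MS-LS. The causes were not tested.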

How the results depend on the processing

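Of 53 named gene ratios past 2-fold, 3 changed sign, all in the mesoderm gate: *Pmp22* (0.16) and *Stard8* (0.29) with a gate of 3 genes, and *Apoa1* (0.33) without cells of the visceral endoderm gate, an alternative chosen after seeing the data. *Apoa1* is 1 of the genes of the visceral endoderm gate, so its change of sign was set in part by the choice of cells. None of 13 list medians past 2-fold changed sign. Of 39 smaller ones, 11 did under some setting, among them blood in the mesoderm gate (1 gene) and node and cranial mesoderm over all cells.

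The counts of genes past 2-fold moved with their own limits, by construction, and in the mesoderm gate the lower count moved most with the gate. Over all cells, 291 were higher and 857 lower with 50 UMIs per gene, 111 and 356 with 200, 590 and 1164 at 1.5-fold, and 57 and 276 at 3-fold. In the mesoderm gate these pairs were 28 and 65, 2 and 11, 68 and 78, and 1 and 2. Without chorionic, visceral endoderm and blood gates (269 labelled, 1283 unlabelled cells), 84 genes were higher and 137 lower, and the medians were 1.17 for streak and caudal and 1.99 for presomitic genes.

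In the mesoderm gate, 36 genes were lower with at least 2 reporter UMIs. With the label called after thinning 5 were higher and 38 lower, with a limit of 5000 UMIs per cell 13 were higher, with the mean of each cell's CPM 3 were higher, and with thinned counts 2 were higher and 10 lower. A gate of 1 gene gave 54 higher and 125 lower, and a gate of 3 genes 2 higher and 0 lower, with 2062 in place of 3638 genes counted. Without the visceral endoderm gate 5 were higher and 12 lower. The presomitic median was 1.41 with a gate of 1 gene. The epithelial median was −1.81 with a gate of 1 gene, −0.21 with 3, and −1.78 without the visceral endoderm gate, and over all cells −1.68 with at least 2 reporter UMIs. The causes were not tested.

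The labelled share of all cells was 3.76% with at least 2 UMIs, 8.0% with a log-normalised level above 1 and 8.73% after thinning. In the mesoderm gate it was 12.0%, 25.3% and 28.4%, and 46.4% with a gate of 3 genes. The remaining alternatives moved no count over 1.5 times. Among them were those without high doublet scores or high mitochondrial shares, and that with cells called female only. Others left out cells with both *Xist* and Y-linked UMIs, or unlabelled cells with a bGH UMI, and these 2 were chosen after seeing the data. No paired analysis was possible because each stage is 1 library. The single reporter UMI of most labelled cells and the 100 UMIs asked of a gene limit what could be detected.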
